A study of Mus musculus with 39 samples.

Results

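The genes of V(D)J recombination and of the end joining that completes it were followed through normal mouse B-cell development and in MLL-AF4 leukemic pre-B cells. The members were a named list of 10 genes (Rag1, Rag2, Dntt, Polm, Lig4, Xrcc4, Xrcc5, Xrcc6, Dclre1c and Prkdc), and a gene counted as measured when at least 1 probe set was annotated to it alone. By that rule 8 of the 10 genes were measured, by 11 probe sets, among 12393 genes in all. Lig4 and Dclre1c were not analysed here. Dntt had 3 probe sets, Xrcc4 had 2 and each other gene had 1, and the probe set with the highest mean stood for its gene.

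V(D)J recombination assembles immunoglobulin genes in developing B cells. The RAG1 and RAG2 proteins form the lymphoid-specific recombinase that cuts DNA at recombination signal sequences, and terminal deoxynucleotidyl transferase (Dntt) adds nucleotides without a template at the joins. The breaks are closed by non-homologous end joining, which every cell uses: the Ku heterodimer (Xrcc6 encodes Ku70, Xrcc5 encodes Ku80) binds the ends, the kinase DNA-PKcs (Prkdc) is recruited to it, DNA polymerase mu (Polm) fills gaps, and XRCC4 holds the ligase. In this order of events the heavy chain is rearranged at the pro-B stage and the light chain at the pre-B stage.

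Sorted bone marrow cells were measured on 39 Affymetrix arrays. Normal cells came from adult mice and were pro-B cells (B220+ CD43+ IgM- IgD-, 6 arrays), pre-B cells (B220+ CD43- IgM- IgD-, 8 arrays), immature B cells (B220+ CD43- IgM+ IgD-, 6 arrays) and mature B cells (B220+ CD43- IgM+ IgD+, 3 arrays). The leukemic group (16 arrays) was sorted with the pre-B gate, and the series names its cells MLL-AF4 leukemic lymphoblasts. For 10 of these arrays the description gives a leukemic mouse, for 5 a mouse that became leukemic following treatment with pIpC (an interferon inducer made of synthetic RNA), and for array 116 an Mll-AF4stop knock-in mouse with no mention of leukemia. The labels give neither the driver of recombination of the stop allele nor the strain, and they do not say whether arrays of 1 normal stage came from separate mice, so the p-values below speak only to the scatter among the arrays, which may be technical. All values are log2 intensities, so a difference of 1 is a doubling, and levels are compared between groups of arrays, never between genes. In sorted bulk RNA, fewer cells of a type and less RNA per cell cannot be told apart.

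Some arrays stood apart. Leukemic array 122 went against its label. The mean over 5 B-lineage markers was 6.96 there and at least 9.45 on the other leukemic arrays. Cd79a was at 7.0 there against 10.66 or more, and Ebf1 at 7.27 against 10.95 or more. Array 122 also had the highest leukemic mean over 10 neutrophil and myeloid markers (9.76, others at most 9.12). The same held over 9 plasmacytoid dendritic markers (9.42, others at most 8.62). Over 11 T and NK markers, array 122 lay inside the range of the others (6.19). The leukemic results for the members are therefore given with and without it. Markers of other cells were present in the normal groups. The mean over 9 plasmacytoid dendritic markers was 10.50 to 11.95 in pro-B, 6.24 to 9.15 in pre-B, 6.41 to 8.29 in immature and 6.48 to 7.86 in mature arrays. That over 11 T and NK markers was 7.86 to 9.50 in pro-B, 5.64 to 6.19 in pre-B, 4.81 to 5.25 in immature and 5.01 to 5.52 in mature arrays. The mean over 10 neutrophil and myeloid markers was 9.92 to 10.66 in pro-B, 7.80 to 9.97 in pre-B, 8.93 to 10.83 in immature and 9.33 to 11.30 in mature arrays. Of the 10, 8 were called lower from pro-B to pre-B, against 15.7% of all genes. From pre-B to immature B 5 were called higher, against 10.9% of all genes. The part of these cells in the results below was not tested. The arrays also fall into 2 sets by their order of deposition (22 and 17 arrays), which differ in the 3' minus 5' signal of Actb (1.29 ± 0.08 and 0.80 ± 0.14, SD). The labels do not say what separates these sets. Mature arrays occur only in set 2, and the other groups occur in both.

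The 3 lymphoid-specific genes and Polm changed most in level through development, and their promoters are shown here because the tests below turn on them. The 250 bases before the annotated start were taken from RefSeq (GRCm38.p6), which held 7 of the 8 measured members. Capitals mark matches, on either strand, to 4 short motifs. The E-box is spelled CANNTG. The Runx core is spelled TGTGGT. The CCAAT box is spelled as named. The Ikaros core is spelled TGGGAA. These motifs occur in 66.2%, 14.0%, 33.8% and 21.6% of 32851 promoter windows of the same length. A Fox motif, TGTTTAC, was found in none of the 4 windows and in 3.17% of all. The windows are Rag1 at chr2:101649533-101649782 on the minus strand, Rag2 at chr2:101624462-101624711 on the plus strand, Dntt at chr19:41029025-41029274 on the plus strand and Polm at chr11:5838017-5838266 on the minus strand.
Rag1: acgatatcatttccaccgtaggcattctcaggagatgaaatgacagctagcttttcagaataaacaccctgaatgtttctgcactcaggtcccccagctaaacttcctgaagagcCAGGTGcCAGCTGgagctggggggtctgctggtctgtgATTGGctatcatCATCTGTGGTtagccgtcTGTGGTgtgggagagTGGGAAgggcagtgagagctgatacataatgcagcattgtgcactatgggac
Rag2: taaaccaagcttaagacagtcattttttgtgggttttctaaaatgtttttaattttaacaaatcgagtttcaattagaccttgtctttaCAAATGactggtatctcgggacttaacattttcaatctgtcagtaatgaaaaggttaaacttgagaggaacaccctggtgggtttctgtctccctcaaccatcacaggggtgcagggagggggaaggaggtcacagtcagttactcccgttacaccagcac
Dntt: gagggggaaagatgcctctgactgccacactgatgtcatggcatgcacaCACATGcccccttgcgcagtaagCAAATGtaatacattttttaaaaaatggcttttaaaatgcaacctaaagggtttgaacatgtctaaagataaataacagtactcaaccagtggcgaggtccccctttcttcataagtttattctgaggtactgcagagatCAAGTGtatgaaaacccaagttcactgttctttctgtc
Polm: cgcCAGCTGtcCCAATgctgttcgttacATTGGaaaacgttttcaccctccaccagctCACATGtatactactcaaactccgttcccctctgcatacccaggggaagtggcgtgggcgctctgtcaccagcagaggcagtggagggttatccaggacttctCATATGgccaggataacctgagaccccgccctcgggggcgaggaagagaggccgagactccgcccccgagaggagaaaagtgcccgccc
The Rag1 window held 3 E-boxes, 2 Runx matches, of which the one 81 bases before the start overlaps the E-box 85 bases before it, 1 CCAAT box and 1 Ikaros match. The Rag2 window held 1 E-box and no other match. Dntt had 3 E-boxes, and Polm had 3 E-boxes and 2 CCAAT boxes. A match is a description of these letters and not evidence of binding.

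From pro-B to pre-B cells, 5 of the 8 genes changed: Rag1, Rag2, Polm and Xrcc6 rose and Dntt fell (limma, Benjamini-Hochberg adjusted p under 0.05 over all genes). In that comparison 33.6% of all genes were called, 17.9% higher and 15.7% lower, and the groups did not overlap for these 5 members and for 10.8% of all genes. From pre-B to immature B cells, Rag1, Rag2, Dntt and Xrcc6 fell, 4 of 8 against 19.6% of all genes called in either direction and 8.7% called lower. From immature to mature B cells, Xrcc6 fell, 1 of 8 against 5.25% of all genes (1.96% higher and 3.29% lower). Against pro-B cells, mature B cells were lower in Rag1, Rag2, Dntt and Xrcc6 and higher in Polm, 5 of 8 against 28.1% of all genes (13.6% higher and 14.6% lower). Those 5 members did not overlap between these groups, nor did 28.7% of all genes. The median size of a difference was 1.12 over the 8 members and 0.31 over all genes from pro-B to pre-B, and 1.15 against 0.23 from pre-B to immature B. Of the 3 lymphoid-specific genes 3 were called in each of these steps, and of the 5 general factors 2 and 1.

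**Figure D1:**
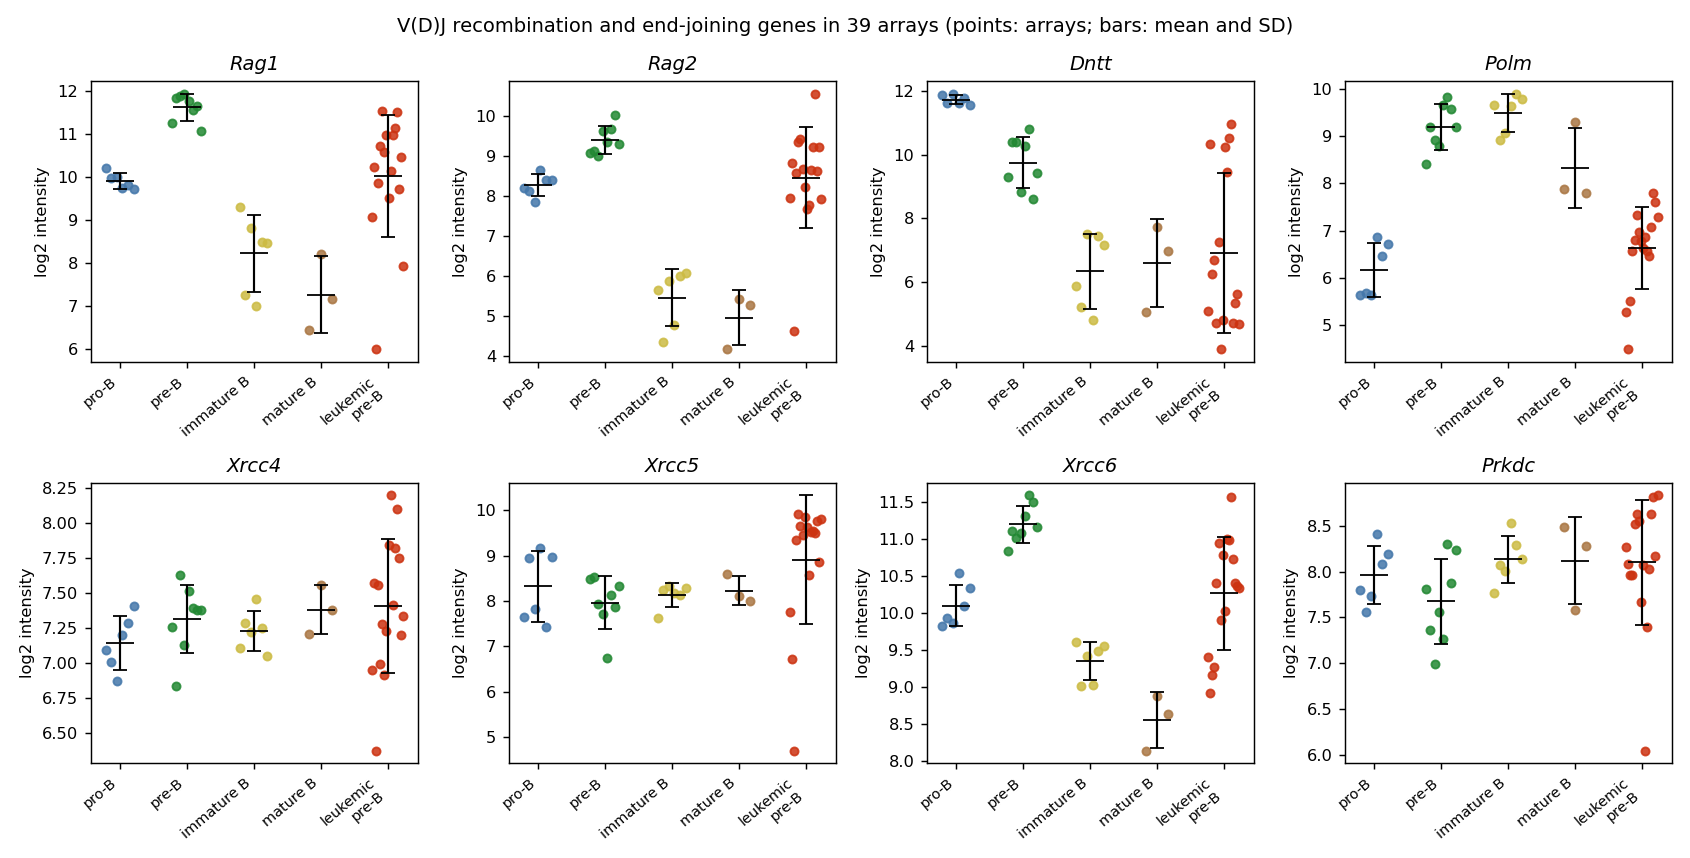
Log2 intensity of the 8 measured genes (1 panel each, y axes scaled per gene) in the 5 groups. Points are arrays and bars are the group mean and SD; Rag1 and Rag2 peak in pre-B cells, Dntt is highest in pro-B cells, Polm rises at the pre-B stage, and Xrcc4 and Prkdc have overlapping groups.

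Rag1, the catalytic subunit of the recombinase, was at 9.72, 9.74, 9.82, 9.99, 10.01 and 10.21 on the pro-B arrays. It ran from 11.06 to 11.94 (median 11.71) on the pre-B arrays. On the immature arrays it was at 7.0, 7.25, 8.46, 8.48, 8.82 and 9.30, and on the mature arrays at 6.42, 7.15 and 8.20. Every pre-B array lay above every pro-B array, and every immature array lay below every pro-B array. Rag1 rose by 1.71 ± 0.29 (SE; 3.27-fold, adjusted p = 8.36e-05) from pro-B to pre-B and fell by 3.40 ± 0.29 (10.6-fold, adjusted p = 9.63e-09) to immature B. Its means in immature (8.22 ± 0.90, SD, n = 6) and mature cells (7.26 ± 0.89, n = 3) were not told apart (difference -0.96 ± 0.38, SE, adjusted p = 0.173). That last difference did pass without immature array 1 (-1.20, adjusted p = 0.0436) or without mature array 2 (-1.43, adjusted p = 0.0321), in a range of 0.0321 to 0.749 over the alternatives.

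Rag2, the partner subunit that the nuclease needs, followed the same course. The pro-B arrays gave 7.85, 8.12, 8.20, 8.40, 8.40 and 8.65, and the pre-B arrays 9.01 to 10.04 (median 9.33). Immature arrays gave 4.36, 4.78, 5.66, 5.88, 5.99 and 6.07, and mature arrays 4.18, 5.28 and 5.43. The lowest values reach the level of 4.95, below which a probe set was taken as dim: this is the 75th percentile over 18 measured genes that B cells are not known to make. Rag2 rose by 1.13 ± 0.26 (SE; 2.19-fold, adjusted p = 0.00185) from pro-B to pre-B, with no overlap of the groups, and fell by 3.94 ± 0.26 (15.4-fold, adjusted p = 1.77e-10) to immature B. The rise did not pass in a fit of all 39 arrays (adjusted p = 0.0793; range over the alternatives 0.000215 to 0.0793). Mature and immature cells differed by -0.50 ± 0.34 (adjusted p = 0.53). Values this low sit near background, so folds against these groups are less certain than the others.

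Dntt, the template-independent polymerase, had the opposite order at the first step. Its pro-B values were tight, 11.57, 11.60, 11.61, 11.79, 11.86 and 11.90, and its pre-B values ran from 8.61 to 10.79 (median 9.84). The immature arrays gave 4.81, 5.22, 5.87, 7.16, 7.45 and 7.50 and the mature arrays 5.08, 6.98 and 7.74. Dntt fell by 1.97 ± 0.44 (SE; 3.92-fold, adjusted p = 0.00164) from pro-B to pre-B and by a further 3.42 ± 0.44 (10.7-fold, adjusted p = 3.42e-06) to immature B, with no overlap at either step. Mature cells stood 5.12 ± 0.58 below pro-B cells in log2 (34.8-fold, adjusted p = 3.55e-07) and were not told apart from immature cells (0.26 ± 0.58, adjusted p = 0.887). The first fall did not pass within set 2 alone (-1.88, adjusted p = 0.0827) or in the fit of all 39 arrays (adjusted p = 0.112), in a range of 5.69e-05 to 0.112. The other Dntt probe sets kept this order: one went from 11.79 ± 0.26 in pro-B to 9.76 ± 0.81 in pre-B (SD), the other from 11.74 ± 0.38 to 8.20 ± 1.07. Pro-B arrays were also the ones with plasmacytoid dendritic and T or NK markers, whose part in the Dntt level was not tested.

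Polm, the gap-filling polymerase, was the end-joining gene with the widest change. Its pro-B values were 5.63, 5.64, 5.67, 6.46, 6.70 and 6.86, and its pre-B values ran from 8.41 to 9.83 (median 9.20). Immature arrays gave 8.92, 9.07, 9.63, 9.67, 9.78 and 9.90, and mature arrays 7.79, 7.88 and 9.30. Polm rose by 3.04 ± 0.27 (SE; 8.21-fold, adjusted p = 1.14e-08) from pro-B to pre-B, with every pre-B array above every pro-B array, and then stayed within the spread into immature B (0.30 ± 0.27, adjusted p = 0.489). The mature mean of 8.32 ± 0.85 (SD, n = 3) stood 1.17 ± 0.36 below the immature one on the log2 scale, just short of the threshold (adjusted p = 0.0556). This fall passed under 7 of 18 alternatives: with quantile normalization (-1.22, adjusted p = 0.0403), without dim genes (-1.17, adjusted p = 0.0392), with the replicate number as a block (-1.56, adjusted p = 0.00238), with deposit set as a covariate (-1.56, adjusted p = 0.00058), within set 2 (-1.45, adjusted p = 0.0268), without immature array 5 (-1.29, adjusted p = 0.0461) and without mature array 2 (-1.66, adjusted p = 0.00572), in a range of 0.00058 to 0.331 over the alternatives.

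Xrcc6, which encodes Ku70, was the other general factor that moved. It was at 9.83, 9.87, 9.94, 10.09, 10.34 and 10.54 in pro-B arrays and 10.83 to 11.59 (median 11.14) in pre-B arrays. In immature arrays it was at 9.01, 9.03, 9.41, 9.48, 9.55 and 9.60, and in mature arrays at 8.14, 8.63 and 8.88. No neighbouring groups overlapped. Xrcc6 rose by 1.10 ± 0.15 (SE; 2.15-fold, adjusted p = 3.46e-06) and then fell by 1.85 ± 0.15 (3.61-fold, adjusted p = 3.29e-09) and by a further 0.80 ± 0.19 (1.74-fold, adjusted p = 0.0121). The last fall did not pass without mature array 1 (-0.60, adjusted p = 0.177) or in the fit of all 39 arrays (adjusted p = 0.407), in a range of 0.000948 to 0.407. The mean over 12 cell-cycle genes was 9.77 to 11.23 in pro-B, 10.45 to 11.33 in pre-B, 8.20 to 9.56 in immature and 8.12 to 8.98 in mature arrays. Of these 12 genes, 12 fell from pre-B to immature B, against 8.7% of all genes, and 1 fell from immature to mature B, against 3.29%. From pro-B to pre-B the ranges of the mean overlapped and the list had no call, where 33.6% of all genes were called. Their part in the Xrcc6 level was not tested.

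Xrcc5, which encodes the other Ku subunit, did not move with Xrcc6. Its pro-B arrays split into 7.42, 7.64 and 7.81 (arrays 2, 4 and 6) and 8.95, 8.98 and 9.17 (arrays 5, 3 and 1). The arrays with the lower values had plasmacytoid dendritic means of 11.72 to 11.95, and those with the higher values 10.50 to 10.87. The same arrays also split in T and NK means (9.28 to 9.50 against 7.86 to 8.10). Their cell-cycle means split the other way (9.77 to 10.18 against 10.69 to 11.23). The part of each of these in the Xrcc5 split was not tested. Pre-B arrays ranged from 6.74 to 8.53 (median 8.03), immature arrays from 7.63 to 8.32 and mature arrays from 7.99 to 8.59, so that all normal groups overlapped. Differences between successive stages were -0.36 ± 0.28, 0.17 ± 0.28 and 0.10 ± 0.37 (SE; adjusted p = 0.317, 0.724 and 0.937).

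Xrcc4, the ligase partner, stayed between 6.84 and 7.63 on all 23 normal arrays, with successive differences of 0.17 ± 0.13, -0.08 ± 0.13 and 0.15 ± 0.18 (SE; adjusted p = 0.321, 0.706 and 0.759). Prkdc, the DNA-PK catalytic subunit, lay between 7.0 and 8.52, and its stage means ran from 7.68 ± 0.46 (SD, pre-B) to 8.13 ± 0.26 (immature B). Its largest step, from pre-B to immature B (0.46 ± 0.20, SE, adjusted p = 0.128), passed with deposit set as a covariate (adjusted p = 0.0405; range 0.0405 to 0.357). For both genes, changes well above these errors could also have been missed. The Prkdc step of 0.46, with an error of 0.20, was itself not called.

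**Figure D2:**
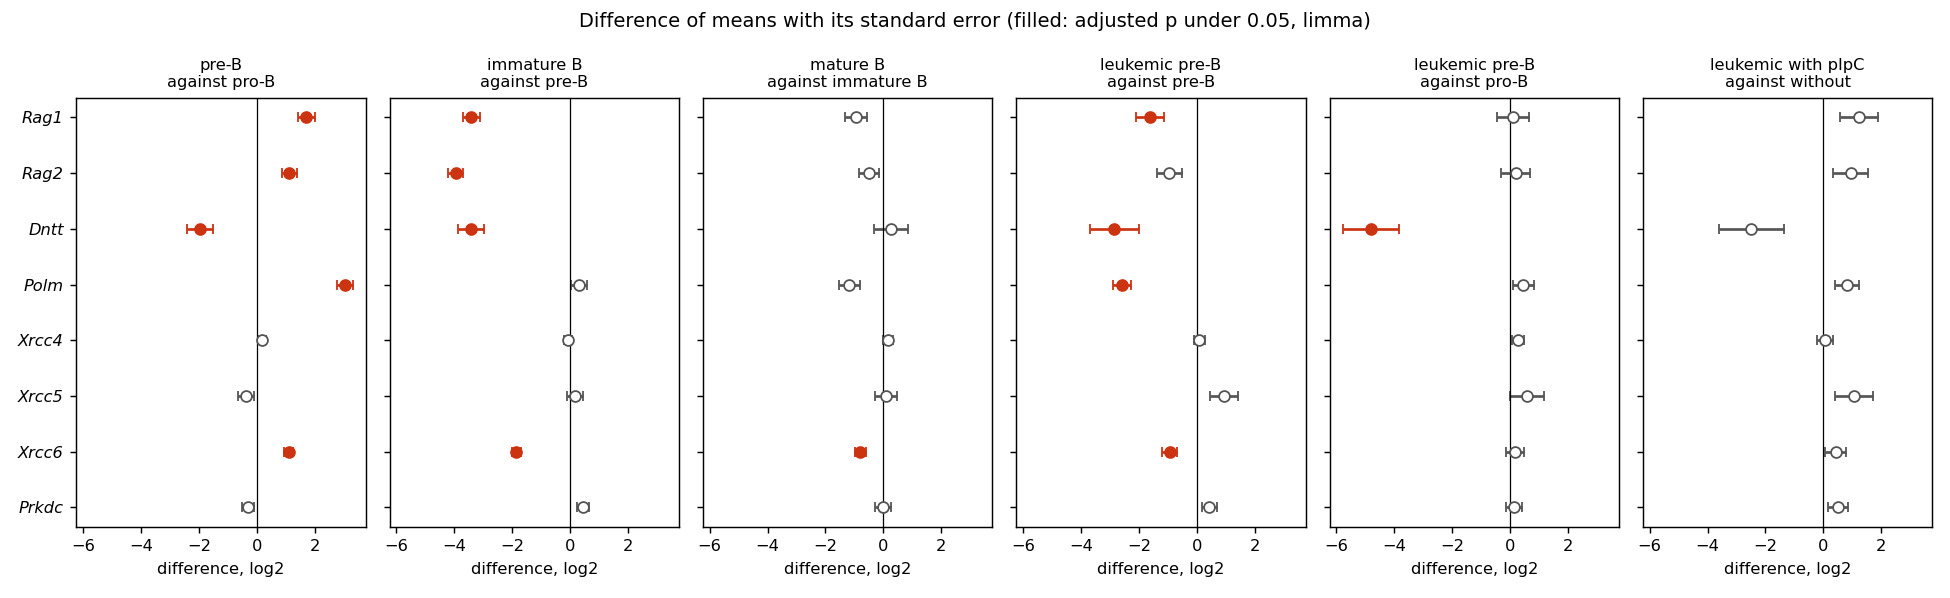
Difference of group means in log2 (x axis, first group minus second) for the 8 genes in 6 comparisons, with the standard error as a bar; filled points passed an adjusted p of 0.05. Rag1 and Rag2 have the same sign at each normal step, Dntt and Polm have opposite signs at the first, and Xrcc4 and Prkdc stay near 0.

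Other genes of the pathway came from lists chosen for their function. Of 19 further end-joining and break-response genes, 4 rose from pro-B to pre-B, a share near the 17.9% of all genes called higher. Among the 4, Nhej1 lay below the dim level of 4.95 in both pro-B (2.76) and pre-B cells (3.02), so its rise is uncertain. Xrcc1, a scaffold for ligase III, rose by 1.02 ± 0.32 (SE, adjusted p = 0.0187; not past the threshold without pro-B array 4 or 6, range 4.59e-05 to 0.0541), and the end-cleaning enzyme Tdp2 by 0.48 ± 0.12 (adjusted p = 0.00512; 0.0574 within set 2, range 0.000647 to 0.0574). H2ax, the histone phosphorylated at breaks, differed by 0.80 ± 0.37 (adjusted p = 0.0944). It passed with deposit set as a covariate (adjusted p = 0.00125), within set 1 (0.89, adjusted p = 0.0214) and with the replicate block (1.01, adjusted p = 0.0135), in a range of 0.00125 to 0.217. From pre-B to immature B, 3 of the 19 rose and 6 fell, where 10.9% of all genes were called higher and 8.7% lower. H2ax fell by 2.04 ± 0.37 (adjusted p = 0.000212), and DNA ligase I (Lig1) fell by 1.80 ± 0.24 (adjusted p = 5.11e-06). In the same step 6 of 7 homologous recombination genes fell: Exo1 fell by 2.01 ± 0.27 (adjusted p = 4.68e-06) and Brca1 fell by 1.66 ± 0.26 (adjusted p = 4.73e-05). All 12 measured cell-cycle genes fell in this step, with a median of -1.78 against -0.06 over all genes.

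Of 7 partners of the recombinase, 2 rose from pro-B to pre-B and 5 were not called, where 17.9% of all genes were called higher: Cdkn1b, a cyclin-dependent kinase inhibitor, by 0.70 ± 0.14 (SE, adjusted p = 0.000493; 0.0568 within set 1, range 5.35e-05 to 0.0568) and Ccna2, cyclin A2, by 0.43 ± 0.16 (adjusted p = 0.039; range 0.0195 to 0.249, not past the threshold under 11 of 24 alternatives). From pre-B to immature B, 5 of the 7 fell, against 8.7% of all genes. Skp2, a ubiquitin ligase subunit that marks RAG2 for degradation, fell by 2.03 ± 0.23 (adjusted p = 5.7e-07), together with Ccna2 by 1.48 ± 0.16 (adjusted p = 1.88e-07). Of 14 factors known to act on the Rag genes, 9 rose and 1 fell from pro-B to pre-B, against 17.9% and 15.7% of all genes. Foxo1, an activator of both Rag genes, rose by 1.03 ± 0.10 (adjusted p = 6.95e-08), Tcf3, which encodes the E2A proteins that bind E-boxes, by 1.19 ± 0.19 (adjusted p = 5.04e-05) and Irf4 by 0.91 ± 0.12 (adjusted p = 3.09e-06), while Bcl11a fell by 1.82 ± 0.12 (adjusted p = 2.12e-10). In the step to immature B, where both Rag genes fell, 3 of the 14 rose, 3 fell and 8 were not called, against 10.9% and 8.7% of all genes. Bcl11a rose by 1.53 ± 0.12 (adjusted p = 3.29e-09) and Gfi1b, a repressor of the Rag genes, fell by 1.84 ± 0.34 (adjusted p = 0.000263).

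In leukemic pre-B cells, 4 of the 8 genes were lower than in normal pre-B cells, namely Rag1, Dntt, Polm and Xrcc6, against 16% of all genes called in either direction and 7.53% called lower. Genes called higher made up 8.5% and included no member. Without array 122 the count was 5, with the same 4 genes lower and Xrcc5 higher. The lower members' differences were -1.60, -2.84, -2.58 and -0.94, and the median over the 8 was -0.94 against -0.01 over all genes. The groups did not overlap for Polm, against 1.55% of all genes. Against normal pro-B cells, Dntt was the 1 member called, lower in the leukemic cells, where 15.7% of all genes were called, 8.11% higher and 7.63% lower; without array 122 it was also the 1 member called. Both comparisons use the same leukemic arrays. Against pro-B cells, 9 of 9 plasmacytoid dendritic, 8 of 11 T and NK and 7 of 10 neutrophil and myeloid markers were called lower. The share of all genes called lower was 7.63%, and the part of these cells in the Dntt difference was not tested.

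Rag1 on the leukemic arrays ran from 5.99 (array 122) to 11.53 (median 10.34), with array 17 at 7.92 as the next lowest. Of the 16 arrays, 13 had less Rag1 than the lowest of the normal pre-B group and 3 fell inside its range. The mean of 10.02 ± 1.43 (SD) was 1.60 ± 0.48 (SE) below pre-B cells in log2 (3.04-fold, adjusted p = 0.0215) and 0.11 ± 0.55 above pro-B cells (adjusted p = 0.911; without array 122, 0.37 and 0.474). Without array 122 the fall was 1.33 (adjusted p = 0.00533). Within set 1 it was -1.67 (adjusted p = 0.162) and within set 2 it was -1.61 (adjusted p = 0.121), so the size held in each set and the call in neither; adjusted p ran from 0.00533 to 0.162 over the alternatives.

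Rag2 ran from 4.63 (array 122) to 10.56 (array 270), with a median of 8.64. It was 0.94 ± 0.43 (SE) below pre-B cells in log2, which did not pass (adjusted p = 0.157; without array 122, -0.68 and 0.0915), and 0.19 ± 0.49 above pro-B cells (adjusted p = 0.809; without array 122, 0.45 and 0.29). Across the 16 leukemic arrays Rag1 and Rag2 went up and down together, with Pearson's r = 0.88 (permutation p = 8e-05, adjusted 0.00024) and Spearman's rho = 0.81 (permutation p = 0.00032, adjusted 0.00096), 3 pairs having been examined. Without array 122 alone, r was 0.71 (permutation p = 0.00386) and rho was 0.77 (permutation p = 0.0014). Without arrays 122 and 17, those farthest from the median of Rag1, r was 0.73 (permutation p = 0.00291). Within set 1, with 12 arrays that include array 122, r was 0.94 (permutation p = 0.00051). Set 2 held too few leukemic arrays for a value. The pairs with Dntt did not pass. For Rag1 with Dntt r was 0.15 and rho 0.13, and for Rag2 with Dntt r was -0.05 and rho -0.08. Their adjusted permutation p was 0.862 for r and 0.772 for rho. Dntt fell into separate clusters, which limits what these pooled values describe.

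**Figure D3:**
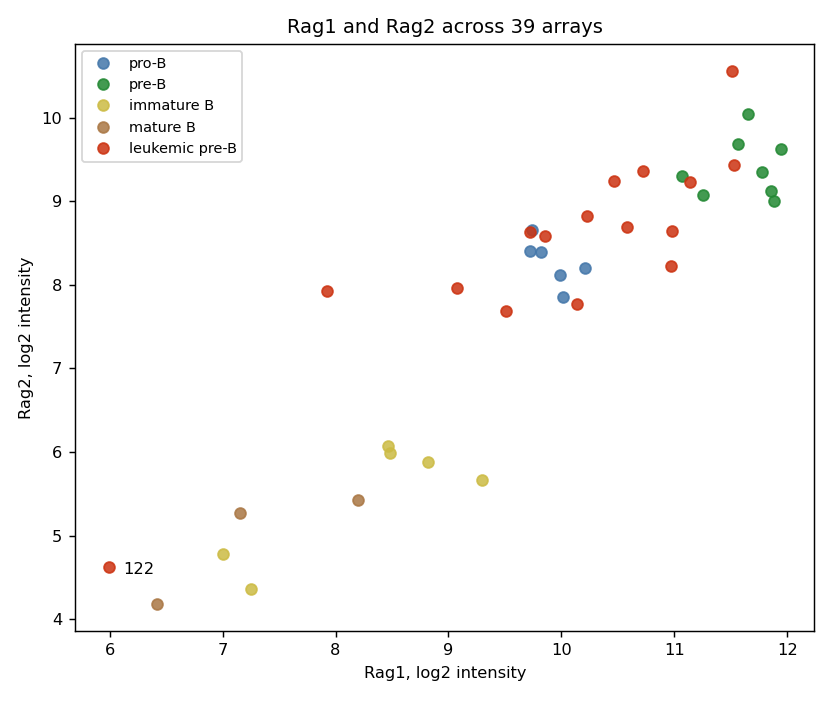
Rag2 (y axis) against Rag1 (x axis), both log2 intensity, for all 39 arrays coloured by group; each point is 1 array. Leukemic arrays spread from the level of array 122, beside the mature arrays at the lower left, up to the pre-B arrays, and immature and mature arrays keep to the lower left.

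Dntt split the leukemic arrays. Arrays 226, 224, 117, 227 and 228 stood at 9.44, 10.24, 10.32, 10.53 and 10.95, within or above the pre-B range of 8.61 to 10.79. The other 11 arrays lay between 3.91 and 7.25, and all 16 were below every pro-B array. The 5 high arrays all belong to set 1, as do 12 of all 16. None of the 5 is described with pIpC, which holds for 11 of all 16. Over all 16, Dntt (6.91 ± 2.51, SD) was 2.84 ± 0.85 (SE) below pre-B cells in log2 (7.16-fold, adjusted p = 0.022) and 4.81 ± 0.96 below pro-B cells (28.1-fold, adjusted p = 0.00157); without array 122 the values were -2.80 (adjusted p = 0.0268) and -4.77 (adjusted p = 0.00169). Within set 1 they did not pass (-2.21, adjusted p = 0.342, and -4.27, adjusted p = 0.124), while within set 2 they were -4.68 (adjusted p = 0.000395) and -6.56 (adjusted p = 0.000118). Over the alternatives adjusted p ran from 0.000395 to 0.342 against pre-B cells and from 3.65e-05 to 0.124 against pro-B cells.

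Polm lay between 4.49 (array 117) and 7.79 (array A46) on the leukemic arrays (median 6.79), all 16 below the lowest normal pre-B array at 8.41. The mean of 6.62 ± 0.87 (SD) was 2.58 ± 0.32 (SE) below pre-B cells in log2 (5.96-fold, adjusted p = 2.02e-06). This held without array 122 (-2.50, adjusted p = 2.57e-06), within set 1 (-2.48, adjusted p = 0.00112) and within set 2 (-2.13, adjusted p = 0.000381). Against pro-B cells the difference was 0.46 ± 0.37 (adjusted p = 0.378; without array 122, 0.54 and 0.274), with 7 arrays above, 3 below and the others inside the pro-B range. Pro-B values differed by deposit set, at 5.63 to 5.67 in set 1 and 6.46 to 6.86 in set 2. In set 2 the leukemic arrays, at 7.08 to 7.79, lay above every pro-B array. In set 1 they ran from 4.49 to 7.33, on both sides of the pro-B arrays. The difference was not called under any alternative (limma adjusted p 0.0911 to 0.568). Over both sets together, leukemic arrays thus overlapped pro-B arrays in Polm and lay below them in Dntt.

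**Figure D4:**
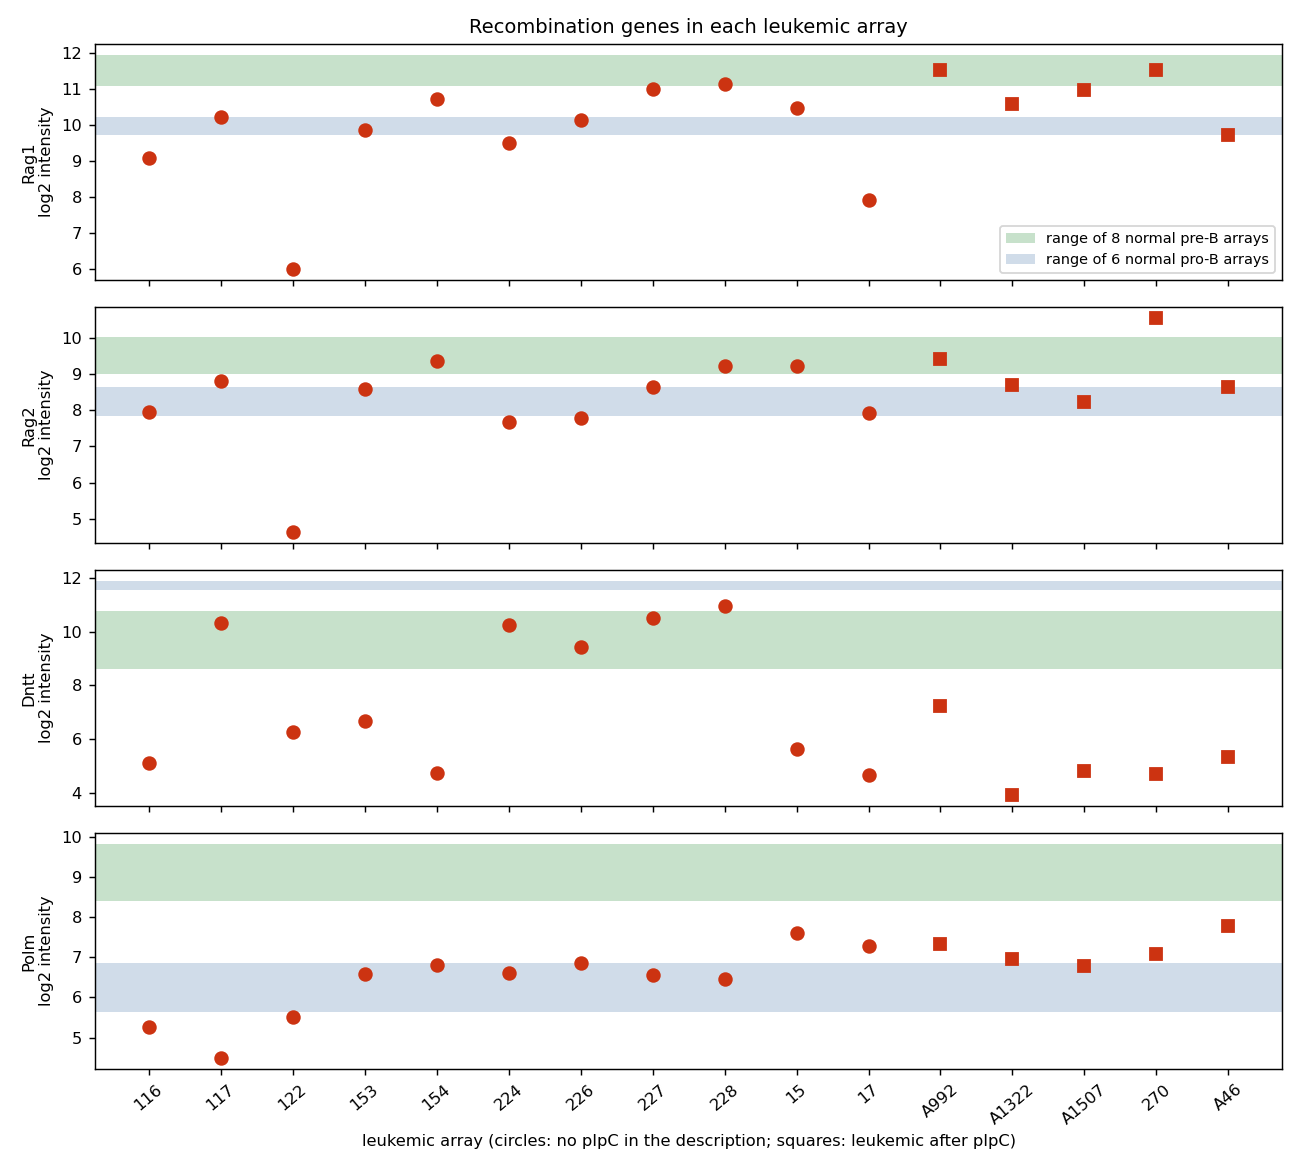
Log2 intensity (y axis) of Rag1, Rag2, Dntt and Polm on each of the 16 leukemic arrays (x axis; circles without and squares with pIpC in the description), with bands for the range of the 8 pre-B and 6 pro-B arrays. Polm lies below the pre-B band on every array, and Dntt reaches the pre-B band on 5 arrays.

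Of the other factors, Xrcc6 ran from 8.92 to 11.57 (median 10.39) on the leukemic arrays, 12 of them below every pre-B array, and was 0.94 ± 0.26 (SE) lower in log2 (1.92-fold, adjusted p = 0.0142; without array 122, -0.86 and 0.0169; within set 1, -0.81 and 0.28; range 0.00151 to 0.28). Xrcc5 lay at 8.58 to 9.92 on 13 arrays, all above every normal pre-B array, and at 4.70, 6.72 and 7.76 on arrays 122, 117 and 116. Its difference of 0.95 ± 0.49 did not pass (adjusted p = 0.223), and it passed without array 122 (1.23, adjusted p = 0.00991), without arrays 116 and 122 (1.33, adjusted p = 0.00357) and within set 2 (1.71, adjusted p = 0.0111), in a range of 0.00357 to 0.745. Prkdc ran from 6.05 to 8.83 and differed by 0.43 ± 0.26 (adjusted p = 0.324; without array 122, 0.44 and 0.322), passing without array 226 (0.56, adjusted p = 0.0382; range 0.0382 to 0.516). Xrcc4 ran from 6.38 to 8.19 and differed by 0.09 ± 0.19 (adjusted p = 0.819; without array 122, 0.16 and 0.61).

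The 5 arrays from mice leukemic after pIpC were set against the other 11. By limma 0 of 12393 genes passed (0.0% of all genes), with 603 at an unadjusted p under 0.05. The groups did not overlap for 0.0565% of all genes, and each of the 8 members overlapped. Dntt was 3.91, 4.71, 4.82, 5.34 and 7.25 on the 5 arrays and 4.67 to 10.95 on the other 11, a difference of -2.48 ± 1.11 (SE, adjusted p = 0.933; -0.13 within set 2). Rag1 differed by 1.22 ± 0.65, Rag2 by 0.94 ± 0.60 and Polm by 0.82 ± 0.42, each with an adjusted p of 0.933. Without array 122 the differences were 0.86 for Rag1, 0.59 for Rag2, -2.63 for Dntt and 0.74 for Polm, each with an adjusted p of 0.874.

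Among the further lists, 1 of the 19 end-joining and break-response genes was called between leukemic and normal pre-B cells: Poll, the polymerase lambda related to Polm, was higher by 0.97 ± 0.24 (SE, adjusted p = 0.00481), its means being 6.12 in leukemic and 5.15 in pre-B cells (without array 122, 0.95 and adjusted p = 0.00649). H2ax differed by -1.0 ± 0.37 (adjusted p = 0.0653; range 0.025 to 0.711). Of 7 homologous recombination genes 1 fell, and of 12 cell-cycle genes 2 fell, where 7.53% of all genes were called lower. Of 7 partners of the recombinase 1 rose and 2 fell, against 8.5% and 7.53% of all genes. Cdkn1b fell by 0.92 ± 0.17 (adjusted p = 0.000276; range 3.21e-05 to 0.0688). Of the 14 factors that act on the Rag genes, 1 rose and 5 fell, against 8.5% and 7.53% of all genes. Tcf3 fell by 0.97 ± 0.21 (adjusted p = 0.00174) and Spib by 1.36 ± 0.20 (adjusted p = 2.66e-05), Bcl11a rose by 1.37 ± 0.20 (adjusted p = 2.28e-05), and Foxo1 differed by -0.72 ± 0.32 (adjusted p = 0.137). Irf4 fell by 1.10 ± 0.28 (adjusted p = 0.00754; range 9.92e-07 to 0.103). Without array 122 the values were -0.86 for Tcf3 (adjusted p = 0.000213), -1.34 for Spib (adjusted p = 4.16e-05) and 1.40 for Bcl11a (adjusted p = 2.14e-05). B-lineage markers moved beside these genes, 2 of 5 being lower in the leukemic cells, and the mean over 10 neutrophil and myeloid markers was 5.20 to 9.76 there against 7.80 to 9.97 in normal pre-B arrays; their part was not tested.

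In a single fit of all 39 arrays, the order of the means was pre-B, leukemic, pro-B, immature B and mature B for Rag1, Rag2 and Xrcc6. Leukemic and pro-B cells were not told apart for these 3 genes (adjusted p = 0.889, 0.762 and 0.647), nor were immature and mature cells (0.749, 0.898 and 0.407). Rag2 was not called between pre-B and leukemic or pro-B cells either, nor was Xrcc6 between pro-B and immature B cells. For Dntt the order was pro-B, pre-B, leukemic, mature and immature B, and no pair of the last 3 was called. The leukemic arrays fell into separate clusters in Dntt (SD 2.51), so a missing call there does not show equal levels. In this fit, whose estimate of the spread includes the leukemic arrays, Dntt was not called between pre-B and pro-B or mature B cells. The Dntt values of pre-B arrays overlapped neither of these groups. The fit of the normal stages alone did call pre-B against pro-B (limma adjusted p = 0.00164). For Polm the order was immature, pre-B, mature, leukemic and pro-B. Between Polm neighbours in that order only the difference of leukemic from mature B cells passed (-1.70, adjusted p = 0.0025). Xrcc4, Xrcc5 and Prkdc had no pair of groups that passed. This fit called 32 of 80 contrasts of a member between groups. Over all genes it called 21.2% between pre-B and pro-B, 17.8% between immature and pro-B, 18.4% between mature and pro-B, 11.4% between immature and pre-B, 15.9% between mature and pre-B, 20.1% between leukemic and pre-B, 22.7% between leukemic and pro-B, 1.64% between mature and immature B, 29.5% between leukemic and immature B and 25.9% between leukemic and mature B cells.

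Over the 39 arrays the gene most like Rag1 among 8787 ranked was Rag2 (Pearson's r = 0.91 over 39 arrays), followed by Stambpl1 (0.89), Tifa (0.88), Sec63 (0.87) and Smarca4 (0.85), with Xrcc6 at rank 6 (0.84). For Rag2 the order was Rag1, Slc16a1 (0.88), Ezh2 (0.88), Stambpl1 (0.86) and Sgo1 (0.86), and Xrcc6 had rank 62. For Dntt it was Plxdc1 (0.84), Dst (0.80), Maged1 (0.79), Tspan13 (0.78) and Pdgfa (0.78), with Rag1 at rank 509 (0.41). These values are descriptions across arrays that share stage, deposit set and sorted purity.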

How the data were processed

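Per the submitters' processing notes, the authors summarised the arrays with RMA; its version and whether all 39 arrays were normalized together are not given in the sources used here. The labels give Trizol extraction and amplification of 20 ng total RNA. The deposited values are 1 linear intensity per probe set and array, taken here to log2 with no offset; array medians were 6.36 to 6.76 on that scale, and precision is limited by how many arrays a group has. Of 22690 probe sets, 64 controls, 691 with several gene symbols and 1555 with none were left out, which left 20380 for 12393 genes, named by the platform annotation. The probe set with the highest mean stood for its gene.

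Groups were compared with limma 3.58.1 (R 4.3.3; intensity trend, Benjamini-Hochberg adjustment over all genes, threshold 0.05): the normal stages in 1 fit, each leukemic comparison in its own. The fit was tested on simulated data. Correlations used 100000 permutations (scipy 1.17.1). No filter on low values was applied, so all 8 members stayed in. From the other lists, up to 4 called genes and up to 2 others with the largest differences could be named. The members and lists were chosen with earlier results of these data known. Alternatives were quantile normalization, leaving out dim genes, other probe set rules, no intensity trend, deposit set as a covariate or alone, the replicate number as a block, and leaving out arrays; leaving out arrays 116 and 122 together, and array 122 from the correlation, was chosen after seeing the data.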

Additional observations from a re-analysis of the deposited data

Results flagged for a closer look

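Of 32 groups of 4 to 10 arrays examined for an isolated highest or lowest value, 3 held one; chance gives about 1 in 20. Xrcc5 was 6.74 on pre-B array 1, while the other pre-B arrays lay between 7.71 and 8.53. Xrcc5 was 7.63 on immature array 4 and 8.13 to 8.32 on the other immature arrays. Prkdc was 7.67 on array A1507 of the leukemic arrays with pIpC and 8.55 to 8.81 on the other 4.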

How the results depend on the processing

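The calls of Rag1, Polm and Xrcc6 from pro-B to pre-B, and of Rag1, Rag2, Dntt and Xrcc6 from pre-B to immature B, kept their direction and their side of the threshold under every alternative run, as did the lower Polm of leukemic against pre-B cells. The number of members called changed under these alternatives. From pro-B to pre-B it was 4 instead of 5 within set 2 and 3 in the fit of all 39 arrays. From pre-B to immature B it was 5 instead of 4 with deposit set as a covariate. From immature to mature B it was 2 instead of 1 with quantile normalization, without dim genes, with deposit set as a covariate, within set 2 and with the replicate block, 0 in the fit of all 39 arrays, and 0 to 3 when 1 array was left out. In leukemic against pre-B cells it was 1 instead of 4 within set 1, and 5 (1 higher) without array 122, without array 226 and without arrays 116 and 122; within set 2 it was 4, of which 1 was higher. In leukemic against pro-B cells it was 0 instead of 1 within set 1. Within set 1 the fit of all groups called 9 contrasts instead of 32, over fewer contrasts since mature arrays are in set 2.

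Numbers of genes called moved too. From pro-B to pre-B, 4162 became 2509 without dim genes (fewer genes tested), 2191 within set 1, 2055 within set 2 and 2627 in the fit of all arrays. From pre-B to immature B, 2426 became 1314 within set 1 and 1414 in the fit of all arrays. From immature to mature B, 651 became 1026 with the covariate and 203 in the fit of all arrays, and 241 to 801 with 1 array left out. For mature against pro-B, 3485 became 5482 with the covariate and 2276 in the fit of all arrays. Leukemic against pre-B gave 1001 within set 1 instead of 1987. Leukemic against pro-B gave 813 without dim genes, 344 within set 1 and 786 within set 2 instead of 1950, and 860 to 2777 with 1 array left out. For pIpC, 0 became 1 without some probe set types, 1 within set 1 and 59 in the fit of all arrays, and 0 to 2 with 1 array left out.

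Signs turned only for differences that were not called, and for 1 listed gene. Xrcc5 turned within set 1 from pro-B to pre-B (0.0296) and from pre-B to immature B (-0.0973), and Prkdc in mature against pro-B with the covariate (-0.0791) and within set 2 (-0.1124). Rag1 turned in leukemic against pro-B within set 1 (-0.0086). For pIpC, Polm turned within set 2 (-0.0061) and Xrcc4 with quantile normalization (-0.0288), within set 1 (-0.2706) and without arrays 116 and 122 (-0.0914). The cell-cycle gene Top2a, lower in mature than immature B, was 0.12 higher without some probe set types. With 1 array left out, Xrcc5 ran from -0.0081 to 0.2681 from pre-B to immature B. From immature to mature B, Dntt ran from -0.31 to 1.03, Xrcc5 from -0.0846 to 0.2161 and Prkdc from -0.20 to 0.25. In mature against pro-B, Xrcc5 ran from -0.2792 to 0.0704 and Prkdc from -0.0318 to 0.4208, and for pIpC Xrcc4 ran from -0.0924 to 0.203.

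Of 27 pairs of same-numbered arrays 16 had a correlation of deviations over 0.1 (median 0.25, range -0.74 to 0.66). In 9 of 27 the own number correlated best, and no chance rate was worked out. Immature and mature arrays numbered 1, 2 and 3 gave 0.41, -0.45 and 0.66. Other numbers of the same set averaged -0.15, 0.23 and -0.32 there. These values do not settle whether replicate numbers pair the samples. With the replicate number as a block, 5, 4, 2 and 5 members were called in the 4 comparisons of normal stages, against 5, 4, 1 and 5; the added call was Polm from immature to mature B (-1.56, adjusted p = 0.00238). The causes of these changes were not tested. Values near the dim level limit the folds of Rag2 and Dntt in the low groups.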
